A study of Mus musculus with 6 samples.

Results

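The 10 genes described here encode proteins that restrain or report signalling through RAS and the ERK kinases: the phosphatase genes Dusp4, Dusp5 and Dusp6, the Sprouty genes Spry1, Spry2 and Spry4, the Spred genes Spred1 and Spred2, and the transcription factor genes Etv4 and Etv5. They were chosen by name, with earlier results of these data known, and all 10 were measured among 19939 genes. The samples were mouse embryonic fibroblasts, connective tissue cells taken into culture from embryos. A tetraploid line, labelled 174 and described as having an abnormal DNA content and as transformed, was set against a diploid line labelled FW and described as the normal control. There were 3 arrays a line, from cells kept in medium with 10% serum and harvested at 80% confluence. The labels name no agent of transformation, strain or embryonic age. With 1 line a ploidy, the effects of ploidy, of transformation and of the line itself cannot be told apart. Nothing in the labels says that the samples within a line came from separate cultures, so p-values measure only the spread between these samples, which may be technical.

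Growth factor receptors switch on RAS, which acts through the kinases RAF, MEK and ERK. Active ERK raises the transcription of its own inhibitors. DUSP proteins remove the activating phosphates from ERK and related kinases, Sprouty proteins dampen the signal between receptor and RAF, and Spred proteins bring the RAS inactivator neurofibromin to the membrane. Etv4 and Etv5 belong to the PEA3 group of ETS transcription factors, which are often read as outputs of FGF and ERK signalling. In fibroblasts this loop limits the response to serum growth factors.

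Sequences just upstream of the genes were available in the RefSeq set (GRCm38.p6) for 7 of the 10 genes, in 8 windows of 250 bases before to 50 after the transcription start. The windows of Spry1 and Spry2 are shown because both genes were lower in the tetraploid line, and that of Dusp5 because it held a pair of serum response element cores (CArG boxes). Capitals mark every match, on either strand, to the letters AGGAAGT (a PEA3 type ETS site), CCGGAA (an ETS core), TGANTCA (an AP-1 site) or TGACGTCA (a cAMP response element), or to the CArG box.
Spry1, chr3:37639697-37639996, plus strand: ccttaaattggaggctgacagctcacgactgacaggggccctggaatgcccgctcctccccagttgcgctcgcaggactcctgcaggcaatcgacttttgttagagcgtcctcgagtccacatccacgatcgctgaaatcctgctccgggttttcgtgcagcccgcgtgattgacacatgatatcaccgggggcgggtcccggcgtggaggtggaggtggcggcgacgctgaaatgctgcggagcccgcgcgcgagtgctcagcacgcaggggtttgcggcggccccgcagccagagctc
Spry2, chr14:105896770-105897069, minus strand: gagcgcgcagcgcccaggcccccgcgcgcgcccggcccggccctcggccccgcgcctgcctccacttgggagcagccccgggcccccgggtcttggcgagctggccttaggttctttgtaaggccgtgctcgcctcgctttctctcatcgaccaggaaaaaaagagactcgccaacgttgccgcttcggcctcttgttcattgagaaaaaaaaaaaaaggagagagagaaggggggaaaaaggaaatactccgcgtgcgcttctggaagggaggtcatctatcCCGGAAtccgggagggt
Dusp5, chr19:53528895-53529194, plus strand: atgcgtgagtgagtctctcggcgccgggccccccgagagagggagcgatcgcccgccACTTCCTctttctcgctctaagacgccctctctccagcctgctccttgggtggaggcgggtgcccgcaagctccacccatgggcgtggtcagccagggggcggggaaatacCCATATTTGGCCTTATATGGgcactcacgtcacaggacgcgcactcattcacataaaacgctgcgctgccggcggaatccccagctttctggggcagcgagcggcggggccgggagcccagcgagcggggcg
The Spry1 window held none of these letters, and the Spry2 window held 1 ETS core at bases 34 to 39 after the start. The Dusp5 window held CArG boxes at bases -82 to -73 and -72 to -63, side by side, and 1 PEA3 type site on the reverse strand at -193 to -187. Among 32851 RefSeq promoter windows, 1.63% held a CArG box and 6 windows held 2 or more. CCGGAA stood in 14.9% of them, AGGAAGT in 9.35%, TGANTCA in 7.81% and TGACGTCA in 1.79%. Of the other windows, that of Spred2 and that of the downstream start of Etv5 held 1 PEA3 type site each, and those of Dusp6, Spred1 and the upstream Etv5 start held no match. Matches in these windows did not overlap one another. All 8 windows held more CpG pairs than the median window, with 17 to 40 against a median of 7 over all windows. The 90th percentile over all windows was 31, and only the windows of Spred1 (40) and the upstream Etv5 start (37) lay above it. A match describes letters only, and the array data do not test binding.

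Each value is the deposited log2 signal of a probe set, so a difference of 1 is a doubling on the array's scale. Levels of different genes come from different probes and are not compared with each other. A background level was set on each array from olfactory receptor genes, at 7.18 to 7.41 on the tetraploid arrays and 7.01 to 7.26 on the diploid arrays. Between 10231 and 11319 genes lay above it on each array, and array medians differed by at most 0.0444. Of 12 fibroblast markers, 10 lay above background on all 6 arrays. Fap and Lum were the exceptions, not above background on any tetraploid array and above it on all 3 diploid arrays. A gene counts as changed at an adjusted p below 0.05 in the limma fit over all 19939 genes.

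The 3 Sprouty genes and Dusp4 were lower in the tetraploid line, while the Spred and PEA3 genes did not pass the test in either direction. Of the 10 genes 4 fell, 0 rose and 6 did not pass. Over all genes 7.75% fell, 6.08% rose and 13.8% changed either way. At an unadjusted limma p below 0.05, 6 of the 10 were lower and 0 higher, against 15% and 14.4% of all genes. The median difference of the 10 genes was -0.67, against 0.07 over all genes. In 5 of the 10 all tetraploid values lay below all diploid values, as they did in 18.2% of all genes, and in 0 of the 10 they lay above, as in 19.1% of all genes. Counted either way, the lines were apart in 37.3% of all genes.

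**Figure D1:**
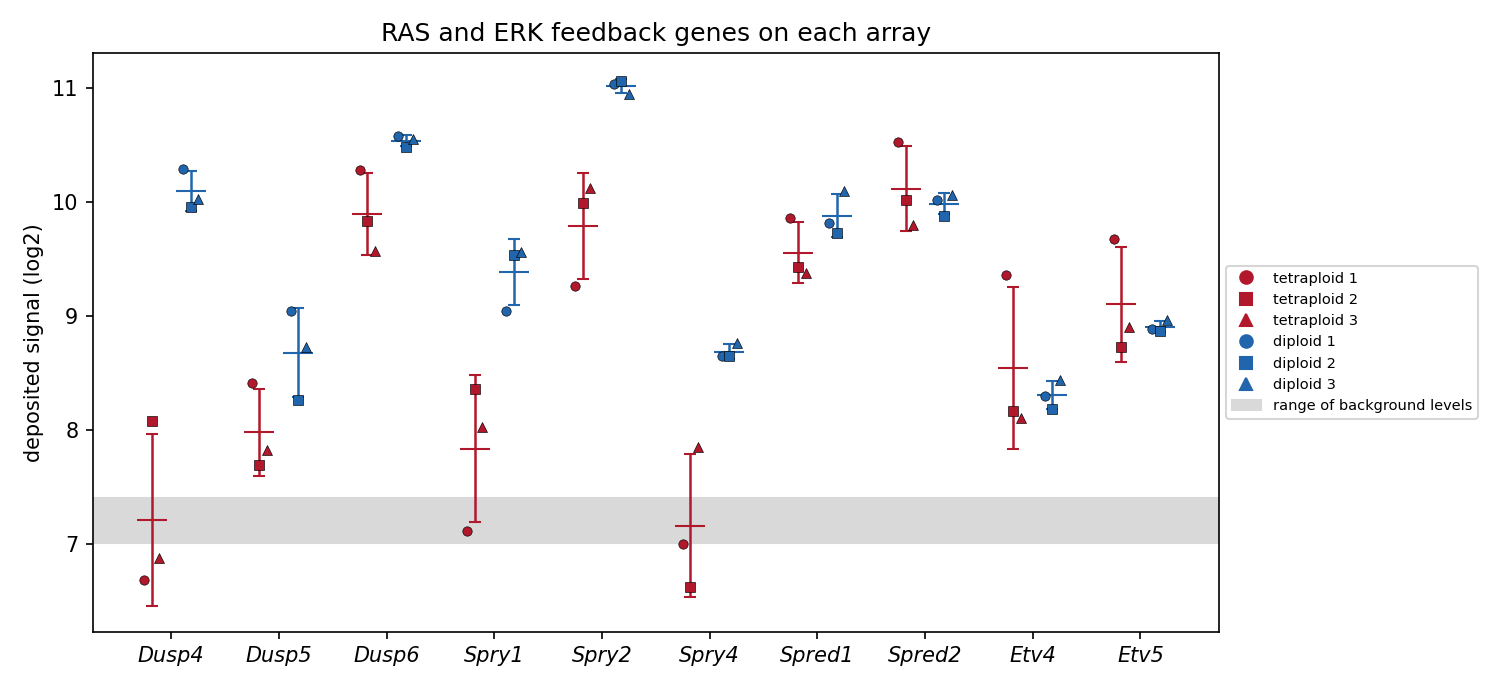
Deposited log2 signal (vertical axis) of the 10 feedback genes on each tetraploid array (red) and each diploid array (blue). Horizontal bars are means, vertical bars the SD over 3 arrays, and the grey band the range of background levels over the 6 arrays. Dusp4, Spry1, Spry2 and Spry4 lie lower on all 3 tetraploid arrays, and the lines overlap in Dusp5, Spred1, Spred2, Etv4 and Etv5.

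Among the phosphatase genes, Dusp4 differed most. It encodes a nuclear phosphatase that acts on ERK and also on the stress kinases JNK and p38. Dusp4 stood at 6.69, 8.08 and 6.88 on tetraploid arrays 1 to 3, against 10.29, 9.96 and 10.03 on diploid arrays 1 to 3. The lines did not overlap, with 1.88 between the nearest values, and of the tetraploid arrays only array 2 was above its background level. The difference was -2.87 with a standard error of 0.38, or 7.33-fold lower on the deposited values (limma adjusted p = 0.00602). The tetraploid values of arrays 1 and 3 thus cannot be read as levels. With every value raised to its array's background the difference was -2.58 (SE 0.23, limma adjusted p = 6.23e-05). Raising these values replaces part of the spread among the tetraploid arrays, so the smaller p is no stronger evidence.

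Dusp5 encodes a nuclear phosphatase specific for ERK. Its values were 8.41, 7.70 and 7.83 on tetraploid arrays 1 to 3, against 9.04, 8.27 and 8.73 on diploid arrays 1 to 3. The lines overlapped, since tetraploid array 1 lay above diploid array 2. The difference of -0.70 ± 0.29 (SE) did not pass (limma adjusted p = 0.169). Dusp6, the cytoplasmic ERK phosphatase, stood at 10.28, 9.83 and 9.57 on tetraploid arrays 1 to 3, against 10.57, 10.48 and 10.55 on diploid arrays 1 to 3. Here the lines did not overlap, with 0.20 between the nearest values. The difference of -0.64 ± 0.23 (SE) did not pass either (limma adjusted p = 0.122), although its unadjusted 95% interval, -1.20 to -0.08, lay below 0. It passed without tetraploid array 1 (difference -0.83, limma adjusted p = 0.0457) and with a prior variance that follows the level (limma adjusted p = 0.0446). With values raised to background it passed too (limma adjusted p = 0.0306). All 6 Dusp6 values lay above background and were unchanged there, so only the prior variance taken from other genes differed (SE 0.18). It did not pass with a replicate block (limma adjusted p = 0.180) or without diploid array 1 (limma adjusted p = 0.267).

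The 3 Sprouty genes fell by 2.33-fold to 2.92-fold on the deposited values, and in each of them every tetraploid value lay below every diploid value. With values raised to background the differences were -1.53 for Spry1, -1.22 for Spry2 and -1.21 for Spry4. Sprouty proteins are inhibitors of receptor tyrosine kinase signalling that are themselves induced by it. Spry1 stood at 7.12, 8.36 and 8.02 on tetraploid arrays 1 to 3, against 9.05, 9.54 and 9.56 on diploid arrays 1 to 3. Tetraploid array 1 was the lowest and lay at or below its background level, and 0.68 separated the lines. The fall was 2.92-fold (difference -1.55 ± 0.35, SE; limma adjusted p = 0.0324).

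Spry2, an inhibitor of FGF receptor signals, stood at 9.26, 9.99 and 10.12 on tetraploid arrays 1 to 3, against 11.03, 11.06 and 10.95 on diploid arrays 1 to 3. All 6 values were above background, the lines were separated by 0.82, and the diploid values lay within 0.12 of each other. The fall was 2.33-fold (difference -1.22 ± 0.27, SE; limma adjusted p = 0.0289). Spry4, which also blocks ERK activation downstream of growth factor receptors, stood at 7.003, 6.63 and 7.85 on tetraploid arrays 1 to 3, against 8.65, 8.65 and 8.76 on diploid arrays 1 to 3. Only array 3 of the tetraploid arrays was above background. The deposited values gave a 2.88-fold fall (difference -1.52 with an SE of 0.33, limma adjusted p = 0.0265). Values raised to background gave a smaller difference of -1.21 (limma adjusted p = 0.00103). As for Dusp4, the smaller p follows from replaced values and is no stronger evidence.

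Of these 4 calls, only that of Dusp4 held in every fit that left out 1 array (limma adjusted p 0.00242 to 0.0273). Without diploid array 1, 2 or 3 the calls of Spry1, Spry2 and Spry4 all ended (limma adjusted p 0.0657 to 0.113). Spry4 also lost its call without tetraploid array 1 (limma adjusted p = 0.0659), Spry4 and Spry2 without tetraploid array 2 (limma adjusted p 0.0624 and 0.0568), and Spry1 without tetraploid array 3 (limma adjusted p = 0.0626). Directions did not change in these fits. Losing calls was common without 1 diploid array, where 29.9% to 44.3% of all called genes remained. Without tetraploid array 1, 2 and 3, 74.1%, 53.8% and 72.5% remained.

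**Figure D2:**
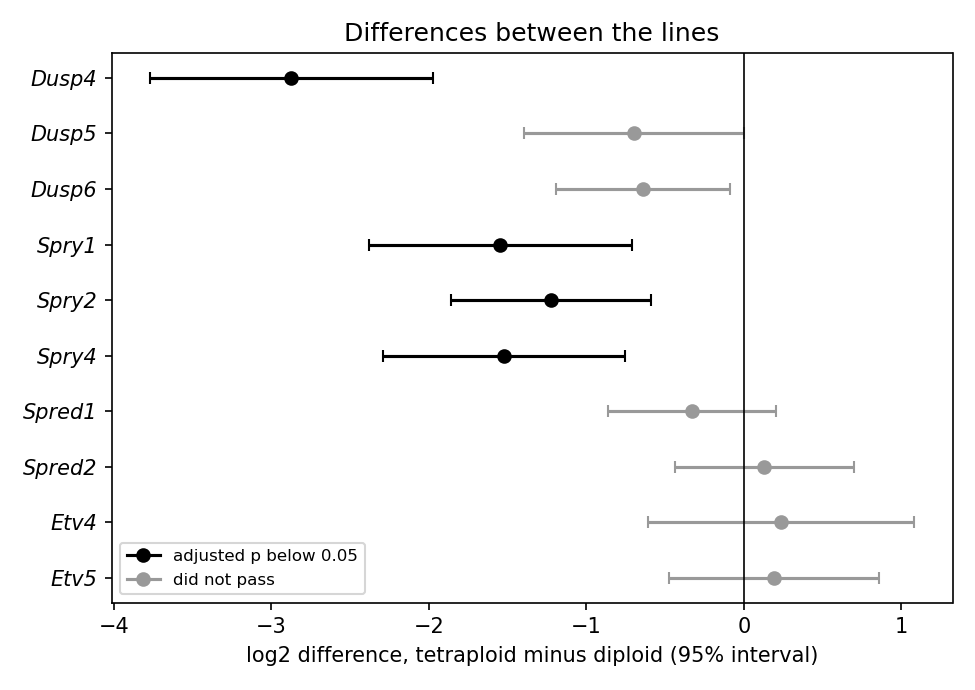
Log2 difference, tetraploid minus diploid (horizontal axis), of each feedback gene with its unadjusted 95% interval from the limma fit. Black points passed at an adjusted p below 0.05 over all genes (Dusp4, Spry1, Spry2 and Spry4), and grey points did not; the intervals of Spred1, Spred2, Etv4 and Etv5 span 0.

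The Spred genes showed smaller differences. Spred1, whose loss of function causes a human disorder of RAS signalling, stood at 9.86, 9.43 and 9.37 on tetraploid arrays 1 to 3, against 9.82, 9.73 and 10.09 on diploid arrays 1 to 3. The lines overlapped and the difference of -0.33 did not pass (limma adjusted p = 0.393; 95% interval -0.86 to 0.21). Spred2, its close relative, stood at 10.52, 10.02 and 9.80 on tetraploid arrays 1 to 3, against 10.01, 9.88 and 10.06 on diploid arrays 1 to 3. The diploid values lay inside the tetraploid range. The difference was 0.13 (limma adjusted p = 0.775; 95% interval -0.44 to 0.70), and that of its other probe set was 0.20 (limma adjusted p = 0.657, fitted over all single-gene probe sets).

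The PEA3 factor genes likewise did not pass the test. Etv4 stood at 9.36, 8.17 and 8.11 on tetraploid arrays 1 to 3, against 8.30, 8.19 and 8.44 on diploid arrays 1 to 3. Tetraploid array 1 was the highest of all 6, and the other two tetraploid values lay below the diploid ones. Etv5 was also highest on tetraploid array 1, at 9.68, 8.73 and 8.90 on tetraploid arrays 1 to 3, against 8.89, 8.87 and 8.96 on diploid arrays 1 to 3. The differences were 0.24 for Etv4 (limma adjusted p = 0.720; 95% interval -0.61 to 1.08) and 0.19 for Etv5 (limma adjusted p = 0.708; 95% interval -0.47 to 0.86). The other Etv5 probe set had a difference of 0.25 and was also highest on tetraploid array 1, at 8.94 (limma adjusted p = 0.603, fitted over all single-gene probe sets). Without tetraploid array 1 the differences of Etv4, Etv5 and Spred2 turned to -0.170, -0.0937 and -0.0738, none of which passed. Whether the Sprouty genes and the PEA3 genes differed in their response was not tested.

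In most of the 10 genes the tetraploid arrays spread more widely than the diploid arrays. The tetraploid SD was the larger in 9 of the 10, all but Dusp5, and in 64.7% of all genes. The median SD of the 10 genes was 0.485 in the tetraploid line and 0.110 in the diploid line. Over all genes it was 0.345 in the tetraploid line and 0.235 in the diploid line. The genes did not shift together from array to array. Tetraploid array 1 held the highest tetraploid value in 6 genes (Dusp5, Dusp6, Spred1, Spred2, Etv4 and Etv5) and the lowest in 3 (Dusp4, Spry1 and Spry2). Over all genes it held the highest in 37.4% and the lowest in 34.5%. Against the diploid mean, the Sprouty genes averaged -1.90, -1.37 and -1.03 on tetraploid arrays 1 to 3, while the PEA3 genes averaged 0.91, -0.16 and -0.10. The array that lay farthest below in the Sprouty average thus lay farthest above for Etv4 and Etv5. Spry4 by itself was lowest on tetraploid array 2 (-2.06, against -1.68 on array 1).

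**Figure D3:**
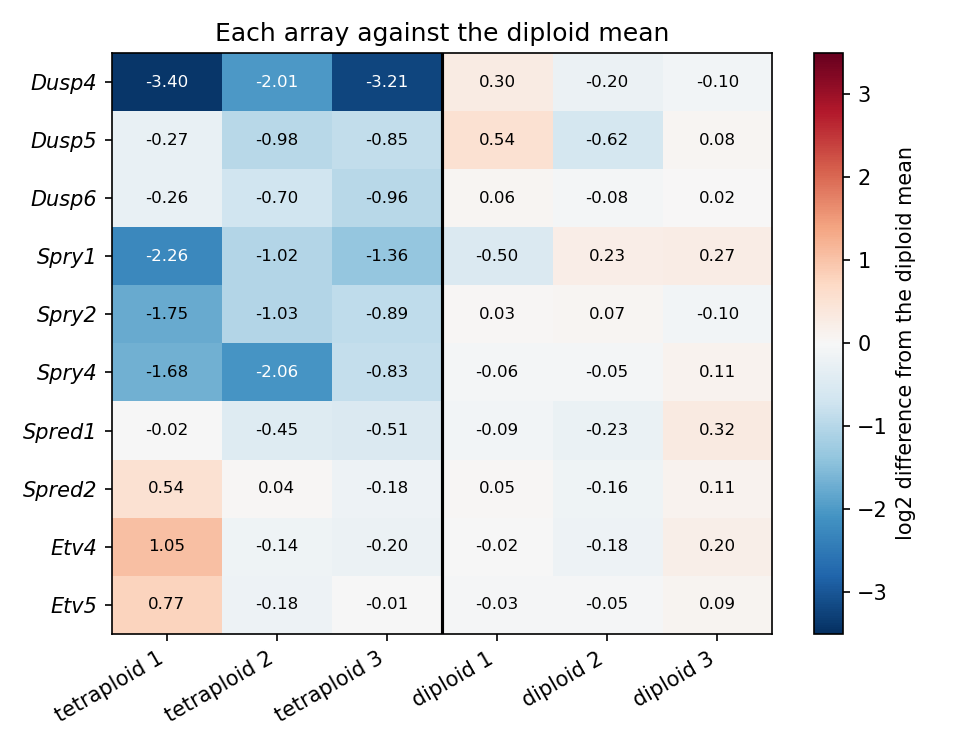
Log2 difference of each array (columns) from the mean of the diploid arrays for each feedback gene (rows); a diploid array is set against the other diploid arrays. Blue is lower and red is higher, and tetraploid array 1 holds both the lowest Spry1 value (-2.26) and the highest Etv4 value (1.05).

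Other members of the same families were measured as well. Of 7 other MAP kinase phosphatase genes 2 fell, 0 rose and 5 did not pass (limma; at an unadjusted p below 0.05, 2 were lower and 0 higher), with a median difference of -0.13. In this list and the lists below, the shares over all genes are 7.75% that fell and 6.08% that rose, or, at the unadjusted p, 15% lower and 14.4% higher. Dusp1, an immediate early phosphatase gene, stood at 8.69, 9.27 and 10.80 on tetraploid arrays 1 to 3, against 11.59, 11.51 and 11.49 on diploid arrays 1 to 3 (3.85-fold lower, limma adjusted p = 0.0475). Its tetraploid values spread widely but all lay below the diploid ones. Dusp8, a phosphatase for JNK and p38, was above background on no tetraploid array and averaged 7.43 on the diploid arrays (at least 1.10-fold lower, limma adjusted p = 0.0302; 0.463 with values raised to background). The call of Dusp1 remained only without tetraploid array 3 and that of Dusp8 only without tetraploid array 1 (limma adjusted p 0.00591 to 0.134 and 0.0169 to 0.0972 over the 6 fits). Spry3 was higher on all tetraploid arrays than on any diploid array, but was above background only on tetraploid array 1, at 8.35. It did not pass (difference 1.75 on the deposited values, limma adjusted p = 0.0691, and 0.221 with values raised to background). Without tetraploid array 2 it passed (limma adjusted p = 0.0390). Spred3 (difference -0.49) and Etv1 (0.45) did not pass either, and Etv1, the third PEA3 factor gene, was highest on tetraploid array 1 too, at 8.81. In these 3 relatives limma called 0 rises and 0 falls, and at an unadjusted p below 0.05 Spry3 was the 1 higher gene and 0 were lower. With a trended prior or with array weights 1 rise was called.

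Further regulators of the pathway, listed as feedback genes and not all of them inhibitors, were mostly not called. Of 17 genes, 2 fell, 15 did not pass and 0 rose (limma; at an unadjusted p below 0.05, 3 were lower and 1 higher), with a median of -0.12. These counts are near the shares over all genes. Flrt3, a membrane protein that modulates FGF receptor signalling, stood at 7.23, 6.89 and 6.78 on tetraploid arrays 1 to 3, against 8.83, 8.58 and 9.18 on diploid arrays 1 to 3. It was above background only on array 1 of the tetraploid arrays. The deposited values gave a 3.73-fold fall (limma adjusted p = 0.00538), which held in all 6 fits without 1 array. Values raised to background gave a difference of -1.56 (limma adjusted p = 1.95e-04), where the smaller p again follows from replaced values. Cbl, a ubiquitin ligase gene that marks active receptors for degradation, was 1.77-fold lower (limma adjusted p = 0.0350), a call that remained only without tetraploid array 3 (limma adjusted p 0.0484 to 0.127 over the 6 fits). The RAS inactivator gene Nf1, whose protein Spred1 recruits, averaged 10.53 on the tetraploid arrays and 9.84 on the diploid arrays and did not pass (limma adjusted p = 0.109).

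The kinase cascade itself changed in a few genes. Of 13 measured RAS, RAF, MEK and ERK core genes 3 fell, 1 rose and 9 did not pass, with a median of -0.04. Map2k1, which encodes the ERK activating kinase MEK1, stood at 10.48, 9.74 and 10.42 on tetraploid arrays 1 to 3, against 11.29, 11.22 and 11.18 on diploid arrays 1 to 3 (2.03-fold lower, limma adjusted p = 0.0408). Iqgap1, a scaffold for the cascade, was 2.48-fold lower (limma adjusted p = 0.0138) and the RAS relative Rras2 1.89-fold lower (limma adjusted p = 0.0251). Ksr1, another scaffold gene, stood at 8.63, 8.59 and 7.72 on tetraploid arrays 1 to 3 and above background on no diploid array (at least 2.21-fold higher, limma adjusted p = 0.0115). The call of Ksr1 ended without diploid array 2 (limma adjusted p = 0.0524), that of Iqgap1 without diploid array 1 or 2, that of Rras2 without any diploid array or tetraploid array 2, and that of Map2k1 in all but the fit without tetraploid array 1. Over those fits the limma adjusted p reached at most 0.0524, 0.0599, 0.0951 and 0.130 in this order.

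Upstream of RAS, single genes differed widely in both directions. Of 14 adaptor and exchange factor genes 1 rose, 2 fell and 11 did not pass, with a median of -0.07. Rasgrf1, which loads RAS with GTP, stood at 9.41, 9.50 and 9.11 on tetraploid arrays 1 to 3, with all diploid arrays below background (at least 4.52-fold higher, limma adjusted p = 1.67e-04). Another exchange factor gene, Rasgrp3, was above background on no tetraploid array and stood at 8.97, 7.91 and 8.40 on diploid arrays 1 to 3 (at least 2.20-fold lower, limma adjusted p = 0.0216). The adaptor gene Gab2 was at least 1.65-fold lower (limma adjusted p = 0.0380). Rasgrf1 held without any 1 array, Rasgrp3 lost its call without any 1 diploid array, and Gab2 without any 1 diploid array or tetraploid array 1 (limma adjusted p up to 0.0723 and 0.108). Of 15 receptor tyrosine kinase genes Met rose, Igf1r fell and 13 did not pass, with a median of -0.32, a count near the 13.8% of all genes that changed. With values raised to background 3 rose and 5 fell. Igf1r, the receptor for insulin-like growth factors, stood at 9.15, 9.46 and 9.62 on tetraploid arrays 1 to 3, against 10.74, 10.61 and 10.70 on diploid arrays 1 to 3 (2.42-fold lower, limma adjusted p = 0.0115; up to 0.0522 without diploid array 1 or 2). Met averaged 11.10 on the tetraploid arrays and 8.27 on the diploid arrays, and its call held in all 6 fits.

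Several immediate early and ERK output genes were lower in the tetraploid line, while ERK activity itself was not measured. Of 28 immediate early and ERK output genes 7 fell, 1 rose and 20 did not pass, with a median of -0.45 (over all genes 7.75% fell and 6.08% rose). The number that fell was 3 without diploid array 1 or 3, 11 with a trended prior and 12 with values raised to background. Fos, which encodes an AP-1 subunit induced within minutes of growth factor addition, stood at 7.80, 8.05 and 8.10 on tetraploid arrays 1 to 3, against 11.03, 11.26 and 10.70 on diploid arrays 1 to 3. The lines were far apart, and Fos was 8.08-fold lower (limma adjusted p = 8.95e-04). Its relative Fosb was 7.37-fold lower (limma adjusted p = 0.00230) and the EGF receptor ligand gene Hbegf 4.31-fold lower (limma adjusted p = 0.00792). Fos, Fosb and Hbegf held in all 6 fits without 1 array. The other falls, Plaur, Ier3 and Hmga2, named after their values were seen, lost their calls in some of these fits: Plaur without diploid array 1 or 3, Ier3 without any 1 diploid array, and Hmga2 in all but that without tetraploid array 1 (limma adjusted p up to 0.0612, 0.0692 and 0.133). The cytokine gene Il11 was also called but lay above background on no tetraploid array and on 1 diploid array (at least 1.03-fold lower, limma adjusted p = 0.0401; 0.863 with values raised to background, and held only without diploid array 2, with a range of 0.0478 to 0.114 over the fits without 1 array). Ets2, an ETS factor gene named after its values were seen, was the member that rose (1.99-fold, limma adjusted p = 0.0310; 0.0426 to 0.125 over the fits without 1 array, of which 2, without tetraploid array 1 or diploid array 3, kept the call). Not all immediate early genes were called. Egr1, also named after its values were seen, averaged 10.58 on the tetraploid arrays and 11.02 on the diploid arrays (limma adjusted p = 0.168). Its tetraploid values all lay below its diploid ones. Fosl1, named in the same way, lay higher on all tetraploid arrays and did not pass (difference 0.90, limma adjusted p = 0.162). In 14 of the 28 genes all tetraploid values lay below all diploid values and in 2 above, against 18.2% and 19.1% of all genes.

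**Figure D4:**
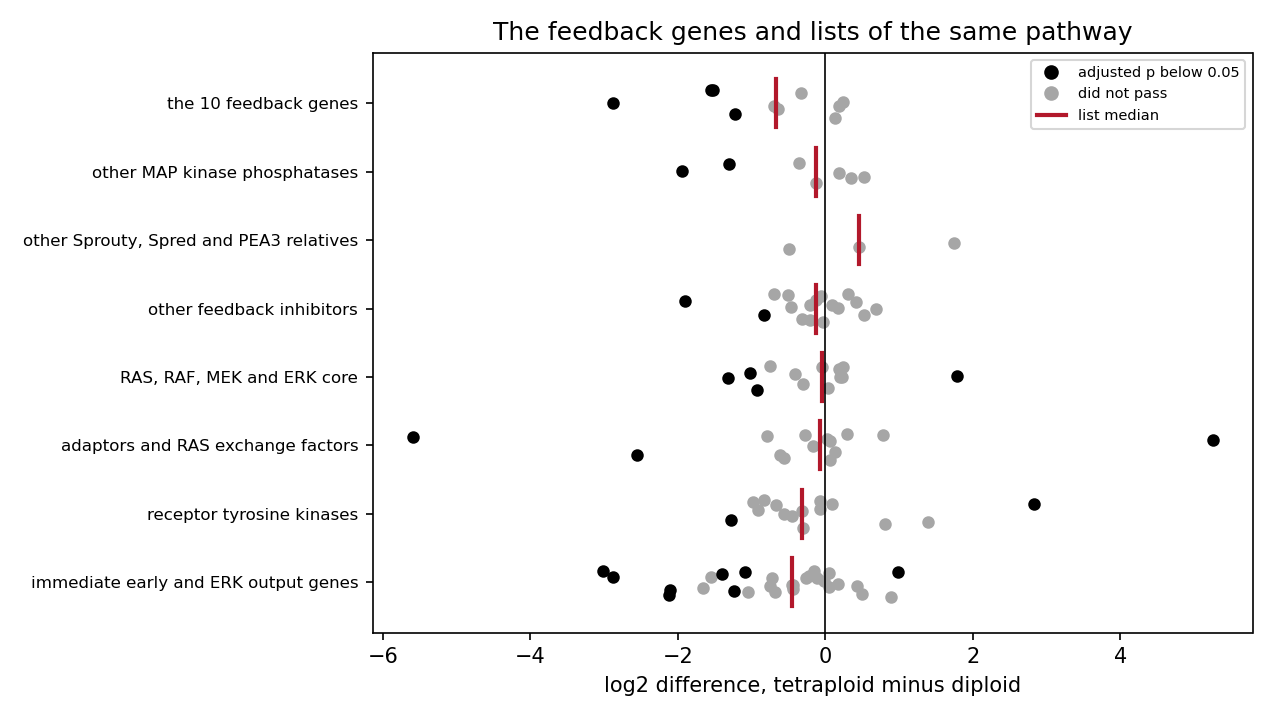
Log2 difference, tetraploid minus diploid (horizontal axis), of every measured gene of the 10 feedback genes and of 7 lists of the same pathway (rows, with random vertical scatter within a row). Black points passed at an adjusted p below 0.05, grey points did not, and red lines are list medians, from -0.67 for the feedback genes to 0.45 for their 3 relatives of the Sprouty, Spred and PEA3 families.

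Some markers of other cell types also differed between the lines. In bulk RNA, fewer cells of a type and less RNA per cell cannot be told apart. Of 6 endothelial markers Kdr and Emcn fell and 4 lay at or below background on all 6 arrays, among them the defining markers Pecam1 and Cdh5. The endothelial list averaged 5.49 to 5.62 on the tetraploid arrays and 6.71 to 6.78 on the diploid arrays. Of 12 macrophage and leukocyte markers 3 fell (Lyz2, Cd53 and C1qa) and 5 lay at or below background on all 6 arrays, with Adgre1 and Ptprc among these. The macrophage list averaged 4.18 to 4.45 on the tetraploid arrays and 5.19, 6.48 and 7.25 on diploid arrays 1 to 3. Of 7 epithelial markers Krt18, above background on no tetraploid array, fell and 6 did not pass, Krt5 with a limma adjusted p of 0.214. This is near the share over all genes, and the list averaged 6.68 to 7.14 on the tetraploid arrays and 7.25 to 7.57 on the diploid arrays. With values raised to background only the call of Kdr remained among these 6 (limma adjusted p = 0.0249), and those of Emcn, Lyz2, Cd53, C1qa and Krt18 ended (limma adjusted p 0.0761 to 0.957). Without tetraploid array 2 the calls of Lyz2, C1qa and Krt18 ended, without tetraploid array 3 that of Lyz2, without tetraploid array 1 that of C1qa, and without diploid array 2 or 3 those of Lyz2 and C1qa (limma adjusted p up to 0.0973, 0.119 and 0.0546 for Lyz2, C1qa and Krt18). Of the 12 fibroblast markers 4 fell (Fap, Lum, Col1a1 and Fn1) and 8 did not pass, and the list averaged 10.25 to 10.74 on the tetraploid arrays and 11.68 to 11.98 on the diploid arrays. Fap held in all 6 fits without 1 array, while Lum lost its call in 2, without diploid array 2 or 3. Col1a1 kept its call only without tetraploid array 3 and Fn1 only without tetraploid array 1 (limma adjusted p up to 0.0659, 0.139 and 0.152 for Lum, Col1a1 and Fn1). The part of these markers in the other differences was not tested.

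The genes whose pattern was most like that of the 10 genes as a whole were P3h1, Ndel1 and Crk. Over the 6 arrays their Pearson correlations with the mean of the 10 genes were 0.999, 0.998 and 0.998, the highest among 8633 genes above background on every array. With 6 points that split into the lines, such values mostly restate that split. P3h1, which encodes a collagen prolyl hydroxylase, was 2.31-fold lower in the tetraploid line, Crk, an adaptor gene, 1.94-fold lower, and Ndel1, a dynein regulator gene, 1.77-fold lower. These genes were picked for following the mean of the 10, so their differences are a description with no test.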

How the data were processed

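RNA of 3 tetraploid and 3 diploid fibroblast samples was depleted of ribosomal RNA, labelled as whole-transcript sense target and hybridised to Affymetrix mouse gene arrays. The authors deposited 1 value per probe set on a log2 scale, as the values show; Affymetrix Expression Console is the only tool named, per the submitters' processing notes, while the algorithm and the normalization are not named there. Values were used as deposited. Of 28944 probe sets, 21789 carried 1 gene symbol; the one of highest mean was kept for each of 19939 genes. Probe sets with several symbols (1621) or none (5534) were not used.

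Tetraploid and diploid arrays were compared by limma 3.58.1 under R 4.3.3 (lmFit, eBayes, two-sided, Benjamini-Hochberg over all genes); the fit was tested on simulated data. Background on each array was the 95th percentile of 1027 olfactory receptor genes. Where all arrays of a line lay at or below it, folds are lower bounds from values raised to it. Arrays give no depth, and their number limits the precision: the smallest two-sided p of an exact permutation test of 3 against 3 is 0.1. Both lines use the replicate numbers 1 to 3, but deviations of same-numbered arrays correlated at 0.100, 0.0308 and -0.0461, so no block was used. The genes, lists and tests were chosen with earlier results of these data known. Named genes are the 10 feedback genes, up to 4 called genes of largest difference per list (or the 2 of smallest adjusted p where fewer than 2 were called), and the 3 genes of most alike pattern. Nf1, Etv1, Ets2, Egr1, Fosl1, Plaur, Ier3, Hmga2 and the defining markers Pecam1, Cdh5, Adgre1 and Ptprc were named outside this rule, after their values were seen. Of 153 list entries 144 were measured. Alternatives were each array left out, a replicate block, quantile normalization, median centring, a background filter, values raised to background, the mean of probe sets, a trended prior and array weights. Raising values to background removes spread below it and changes the prior variance shared by all genes. Smaller p-values under that setting are therefore no stronger evidence.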

Additional observations from a re-analysis of the deposited data

How the results depend on the processing

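Over all genes the counts, 1213 that rose and 1545 that fell, moved most when 1 array was left out (261 to 1040 rose and 578 to 1552 fell). A trended prior called 1834 rises, values raised to background 1960 rises, and the replicate block 607 rises. Of the 10 feedback genes 4 fell, and 1 to 4 fell in the fits without 1 array. In the settings that kept all arrays 3 to 5 fell. The replicate block gave 3, where Spry2 lost its call (limma adjusted p = 0.0594). A trended prior or values raised to background gave 5, where Dusp6 gained a call although its difference was unchanged. No setting called a rise among them. The Spred2, Etv4 and Etv5 differences turned to -0.0738, -0.170 and -0.0937 without tetraploid array 1, in ranges over the fits without 1 array that reached 0.288, 0.454 and 0.381, and no other difference of the 10 genes changed sign. Among the pathway lists, falls of immediate early and ERK output genes ranged from 3 to 12 over all settings (7 as reported), those of receptor tyrosine kinases from 0 to 5 (1 as reported), and those of the other MAP kinase phosphatases from 0 to 2 (2 as reported). The cause of these changes was not tested. Signal over background limits Dusp4, Spry1 and Spry4, each with tetraploid values at or below it.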
